A study of Mus musculus with 28 samples.

Results

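The spleen transcriptome after lipopolysaccharide (LPS) was measured in the wild-type mice of an experiment that also held PPARγ-null mice, titled ABAIMMUN06. All 8 of its wild-type arrays, of 28 arrays in the series, were used: 4 from LPS-challenged mice and 4 from mice without LPS (NoLPS). Each arm held 2 arrays from mice on a diet containing added ABA (abscisic acid, a hormone of plants), and 2 from mice on the control diet (CON). The wild-type mice were PPAR g flfl; MMTV-Cre-, so both arms carried floxed Pparg alleles without the recombinase. The null mice of the same experiment were PPAR g flfl; MMTV-Cre+, with Cre driven by the MMTV promoter, and gave 8 further arrays. A second experiment, titled ABAIMMUN05, held 12 arrays of wild-type mice with the same alleles, 8 with LPS and 4 without, again on both diets. The source label is spleen, while the protocols speak of splenocytes. The dose, route and duration of the challenge and the age of the mice were not given in the sources used here. The labels do not say that the replicates were separate animals, so the p-values below measure only the spread between these samples, and 8 arrays limit their precision.

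LPS, a component of the outer membrane of Gram-negative bacteria, is sensed by Toll-like receptor 4 with its partners MD-2 (Ly96) and CD14. The adaptor MyD88 leads from there to NF-kB and the inflammatory cytokines, and the adaptor TRIF (Ticam1) to interferon-β, which switches on the interferon-stimulated genes. In the mouse, the spleen is a lymphoid organ (white pulp), a filter in which macrophages take up old red cells and return their iron (red pulp), and a site where red cells are made.

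Every value below is the authors' log2 expression value, read in the order CON replicates 1 and 2, then ABA replicates 1 and 2, and a change is the LPS minus the NoLPS level with diet as a term in limma. A difference of 1 on this scale is 2-fold. The lowest value the 8 arrays can take was 2.24, held by 36.2% to 37.3% of probe sets on an array, so a change of a gene within 0.5 of it in 1 arm is limited by that lowest value. Markers of B cells averaged 9.23 to 9.86 on the LPS arrays and 8.90 to 10.38 on the NoLPS arrays, while 7 of 7 liver genes and 8 of 12 pancreas genes with a probe set came within 0.5 of the lowest value on each of the 8 arrays. Arrays of different arms correlated at 0.942 to 0.979 over all probe sets, below most pairs of the same diet and arm (0.974 to 0.995). Among the NoLPS arrays, ABA replicate 2 had an erythroid mean of 9.35 beside 11.25 to 12.17 on the others and a neutrophil mean of 7.48 beside 6.28 to 6.92. Over all probe sets ABA replicate 1 lay further from the CON NoLPS arrays, at correlations of 0.9752 and 0.9820, beside 0.9839 and 0.9845 for ABA replicate 2. Its mean for NF-kB genes was 7.56, beside 8.31 to 8.54 on the others. Xist, the RNA that coats the inactive X chromosome of females, read 13.07, 12.61, 2.24 and 2.24 on the LPS arrays and 2.24, 2.24, 13.05 and 2.24 on the NoLPS arrays. The labels give no sex, and within the control diet high Xist and LPS cannot be told apart. Within the LPS arm, high Xist and the control diet cannot be told apart either.

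After LPS, interferon-stimulated genes, chemokines, an itaconate-making enzyme and matrix proteases stood far above their NoLPS levels, and genes of red cell formation and cell division stood far below, as did the haemoglobin scavenger receptor Cd163. Of 18193 genes with a probe set of their own, 12507 passed the filter on low values and were tested. At an adjusted p under 0.05, 653 rose (5.22% of those tested) and 427 fell (3.41%), 1080 in all (8.64%). An unadjusted limma p under 0.05 was held by 3365 of the 12507, the share to set beside the unadjusted counts of lists below. The split moved with the setting, at 697 rising and 635 falling with quantile normalisation, 1098 and 1094 with array weights, 538 and 563 without ABA NoLPS replicate 1 and 214 and 44 without CON LPS replicate 2. The median change was 1.91 among the genes that rose, -1.91 among those that fell and 0.00 over all genes tested. Of the genes that rose, 302 rose by at least 2 and 64 by at least 4. Among those that fell, the same limits held 202 and 49. The 4 LPS and 4 NoLPS arrays did not overlap for 1033 of the 1080 genes, beside 2336 of all genes tested (18.7%). Each of the 1080 changed in the same direction on both diets, and none turned its direction when any of the 8 arrays was left out. The genes were called on these same arrays by a test that favours a small spread, so these agreements are no separate support. The number called depended on single arrays, at 258 without CON LPS replicate 2, 352 without ABA LPS replicate 2, 353 without CON LPS replicate 1, 344 and 363 without CON NoLPS replicates 2 and 1, and 1640 without ABA NoLPS replicate 2. For most lists described below the lowest count came without ABA LPS replicate 2 or without 1 of the 4 CON arrays. Calls made in all 8 of these fits numbered 225, of which 194 rose and 31 fell. Among the genes that rose, 2 passed the filter with no NoLPS array clearly off the lowest value, and 32 had all 4 NoLPS arrays near it. Others, such as Mmp13 and Nfil3, had some NoLPS arrays past the filter but needed LPS arrays to reach 4. The number of such genes was not counted.

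Mmp13, a collagenase, read 9.14, 9.78, 12.43 and 11.01 on the LPS arrays, against 2.24, 2.24, 2.24 and 2.31 on the NoLPS arrays, which lay at or next to the lowest value. Its change was 8.33 ± 0.57 (adjusted p = 0.00192). Ifit1, which binds viral RNA that lacks a host cap, read 11.10, 11.24, 10.38 and 11.76 with LPS, against 3.16, 2.90, 3.27 and 2.52 without, a change of 8.16 ± 0.33 (adjusted p = 0.000414). Acod1, the enzyme that makes itaconate in macrophages, read 10.91, 11.62, 10.27 and 10.77 with LPS, against 2.88, 2.76, 2.78 and 2.58 without, a change of 8.14 ± 0.23 (adjusted p = 9.44e-05). For these genes every LPS array stood at least 6 above every NoLPS array. Il1rn, the antagonist that blocks the interleukin-1 receptor, changed by 8.08 ± 0.28 (adjusted p = 0.000216) and Slfn4, a myeloid Schlafen gene, by 7.98 ± 0.71 (adjusted p = 0.00403). Saa3, an acute phase protein, changed by 7.91 ± 0.45 (adjusted p = 0.00122) and Cxcl10, a chemokine for T and NK cells, by 7.34 ± 0.56 (adjusted p = 0.00257). Gzmb, the protease that cytotoxic cells inject into targets, read 10.20, 10.40, 10.34 and 9.97 with LPS, against 3.22, 3.22, 2.93 and 3.22 without. With a change of 7.08 ± 0.11 (adjusted p = 1.15e-05), it had the smallest standard error of the 12 genes that rose most. Its value was the same on 3 of the NoLPS arrays, so this error rests on few distinct values. Gbp6, an interferon-induced GTPase, Timp1, an inhibitor of matrix proteases, and Cxcl9, another T cell chemokine, changed by 7.04, 6.67 and 6.56. Ubd, a ubiquitin-like protein, read 12.70, 13.29, 7.95 and 10.70 with LPS, against 4.30, 3.72, 4.48 and 5.13 without, so that the ABA arrays with LPS lay below both CON arrays with LPS. Its change of 6.75 ± 1.11 (adjusted p = 0.0253) was called in 3 of the 8 fits that leave out 1 array, while the other 11 of the 12 were called in all 8.

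**Figure D1:**
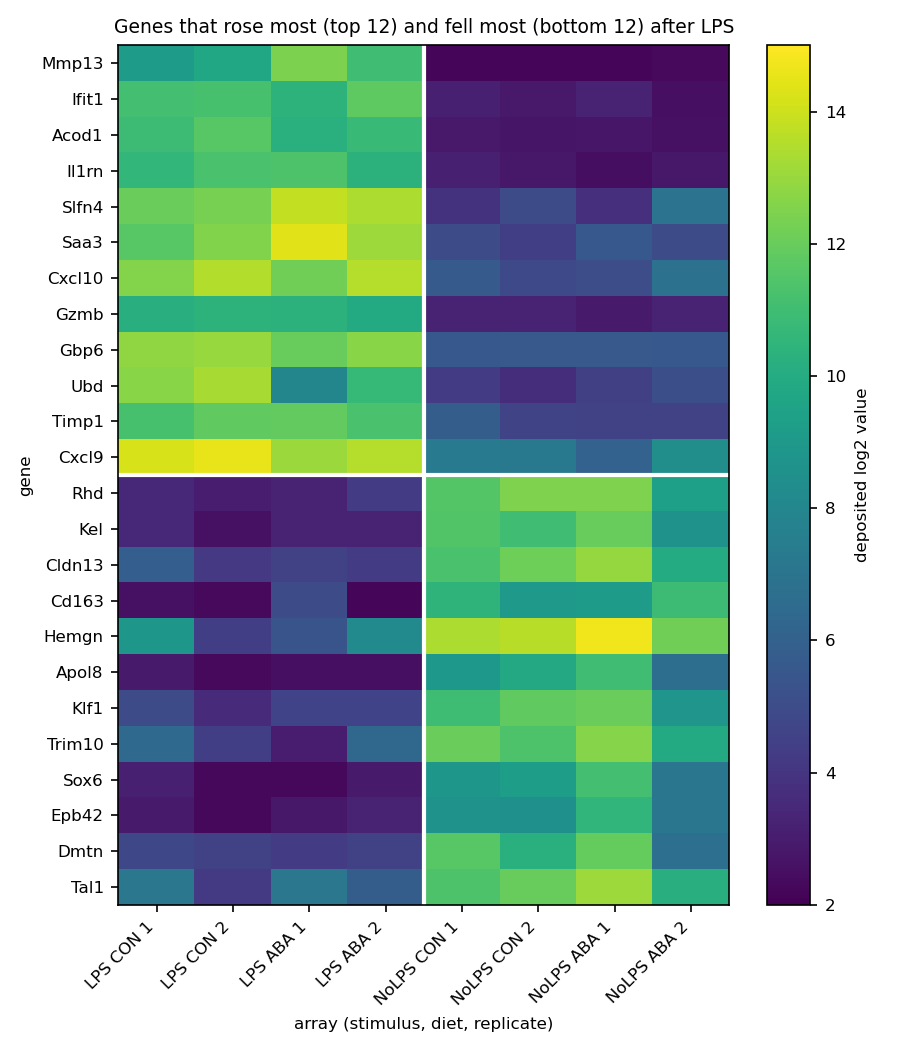
Deposited log2 values (colour) of the 12 genes that rose most and the 12 that fell most (vertical axis) on each of the 8 arrays (horizontal axis), LPS arrays left of the vertical white line. Rhd stood at 3.05 to 4.32 on the LPS arrays, against 9.34 to 12.50 on the NoLPS arrays, whose lowest value was that of ABA replicate 2.

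Interferon-stimulated genes rose together. Of 25 antiviral genes tested, 19 rose, with a median change over the 25 of 4.03. When an array was left out, 17 to 20 of the list rose. Ifit3 read 11.88, 11.98, 10.53 and 11.69 with LPS, against 5.83, 6.32, 4.91 and 5.66 without, a change of 5.84 ± 0.31 (adjusted p = 0.00095). Mx1, a GTPase that blocks influenza virus, read 8.48, 9.48, 8.58 and 9.47 with LPS, against 3.93, 3.50, 3.46 and 3.60 without, a change of 5.38 ± 0.30 (adjusted p = 0.00117). Xaf1, a pro-apoptotic interferon target, changed by 4.03 ± 0.24 (adjusted p = 0.00134) and Bst2, the tetherin that holds budding virus to the cell, by 3.28 ± 0.24 (adjusted p = 0.00232). All 10 interferon-induced GTPases tested, proteins that attack the vacuoles of intracellular microbes, rose, with a median of 4.01. Their mean level was 12.54, 12.76, 12.03 and 12.45 on the LPS arrays, against 8.06, 8.15, 8.06 and 8.61 on the NoLPS arrays. Iigp1 read 14.47, 14.54, 14.35 and 14.63 with LPS, against 8.93, 9.20, 9.18 and 9.81 without, a change of 5.22 ± 0.18 (adjusted p = 0.000216). Gbp2 changed by 5.46 ± 0.31 (adjusted p = 0.00122), Igtp by 4.67 and Irgm1 by 3.87. Gbp8 had the smallest change of the 10, 1.71 ± 0.36 (adjusted p = 0.0457), and was called in 1 of the 8 fits that leave out 1 array.

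The promoters printed here belong to genes whose changes are given above and below, and were chosen as examples because they hold short sequences that known regulators of such genes bind. Each runs from 250 bases before the start of transcription to 50 after it, on the gene's strand, from RefSeq (GRCm38.p6). Capitals mark the interferon response element core (GAAANNGAA) or a kappaB core (GGGANTTTC) on either strand in the genes that rose, and AGATAA, the core bound by GATA factors, in the genes that fell. The GATA core was added after the changes were seen.
Ifit1, chr19:34640639-34640938, plus strand: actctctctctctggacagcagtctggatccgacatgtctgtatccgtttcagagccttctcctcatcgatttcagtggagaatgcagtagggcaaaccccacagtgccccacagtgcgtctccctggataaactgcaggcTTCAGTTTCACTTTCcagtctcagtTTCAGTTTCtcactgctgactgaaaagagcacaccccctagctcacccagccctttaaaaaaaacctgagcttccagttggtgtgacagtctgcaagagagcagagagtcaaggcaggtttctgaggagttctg
Gbp2, chr3:142620413-142620712, plus strand: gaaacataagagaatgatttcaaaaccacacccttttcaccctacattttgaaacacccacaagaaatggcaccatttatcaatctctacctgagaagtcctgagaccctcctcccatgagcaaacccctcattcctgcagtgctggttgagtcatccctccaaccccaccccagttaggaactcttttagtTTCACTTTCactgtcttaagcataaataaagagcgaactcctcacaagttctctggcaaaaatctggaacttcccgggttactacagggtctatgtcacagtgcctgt
Cxcl9, chr5:92328030-92328329, minus strand: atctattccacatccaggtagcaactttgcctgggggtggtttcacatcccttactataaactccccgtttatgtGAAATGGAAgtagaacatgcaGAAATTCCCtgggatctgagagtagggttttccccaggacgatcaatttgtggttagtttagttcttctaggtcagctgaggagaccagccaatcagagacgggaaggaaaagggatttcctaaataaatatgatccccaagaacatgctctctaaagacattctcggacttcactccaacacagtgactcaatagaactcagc
Cxcl2, chr5:90903649-90903948, plus strand: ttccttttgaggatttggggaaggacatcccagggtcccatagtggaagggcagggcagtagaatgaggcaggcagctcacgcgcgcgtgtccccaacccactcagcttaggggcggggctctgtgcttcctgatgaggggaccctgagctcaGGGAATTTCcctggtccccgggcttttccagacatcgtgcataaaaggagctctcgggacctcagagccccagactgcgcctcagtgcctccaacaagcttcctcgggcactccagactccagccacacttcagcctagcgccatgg
Rhd, chr4:134864286-134864585, plus strand: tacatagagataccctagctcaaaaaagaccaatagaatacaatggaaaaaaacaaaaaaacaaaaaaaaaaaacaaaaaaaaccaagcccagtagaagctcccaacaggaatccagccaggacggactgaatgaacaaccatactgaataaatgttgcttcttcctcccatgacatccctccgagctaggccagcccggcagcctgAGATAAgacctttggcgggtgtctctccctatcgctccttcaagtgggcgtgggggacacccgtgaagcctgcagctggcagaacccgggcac
Kel, chr6:41704276-41704575, minus strand: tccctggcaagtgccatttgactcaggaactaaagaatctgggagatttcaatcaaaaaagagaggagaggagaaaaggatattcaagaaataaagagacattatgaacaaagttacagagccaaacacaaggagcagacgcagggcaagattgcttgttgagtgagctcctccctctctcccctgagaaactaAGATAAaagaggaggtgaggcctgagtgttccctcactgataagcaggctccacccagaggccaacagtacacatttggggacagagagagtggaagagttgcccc
In Ifit1, 3 interferon response element cores begin 109, 103 and 84 bases before the start, the first pair overlapping, and all lie on the reverse strand. Gbp2 has 1 such core, 58 bases before its start and also on the reverse strand. Cxcl9 has 1 at 175 bases and, on the reverse strand, a kappaB core at 154 bases before the start, and Cxcl2 has a kappaB core at 97 bases. The GATA core lies 43 bases before the start of Rhd and 56 before that of Kel.

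Such matches are descriptions and not bound sites. The interferon response element core occurred in the promoters of 86 of 520 genes that rose and had a promoter in the table (16.5%) and of 22 of 344 that fell (6.4%), beside 882 of the 10075 tested genes with a promoter (8.8%) and 2638 of all 27025 (9.8%). It occurred in 6 of 7 interferon-induced GTPases and in 9 of 19 antiviral genes. The kappaB core occurred in 4 of 10 CXC chemokines and 2 of 13 genes of the NF-kB list, and in 0 of 9 CC chemokines, 0 of 19 antiviral genes and 0 of 7 GTPases, beside 1.2% of tested genes with a promoter and 1.3% of all. AGATAA occurred in 9 of 19 erythroid genes and in 11.9% of all genes that fell, beside 8.2% of tested genes and 12.7% of all. The GAS core (TTCNNNGAA) was also searched, as planned, and lay in none of the promoters printed. It occurred in 11.0% of genes that rose and 5.8% that fell, beside 8.2% of tested genes and 9.6% of all. Among lists it occurred in 6 of 19 antiviral genes, 3 of 7 GTPases, 1 of 10 CXC chemokines and 0 of 19 erythroid genes.

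**Figure D2:**
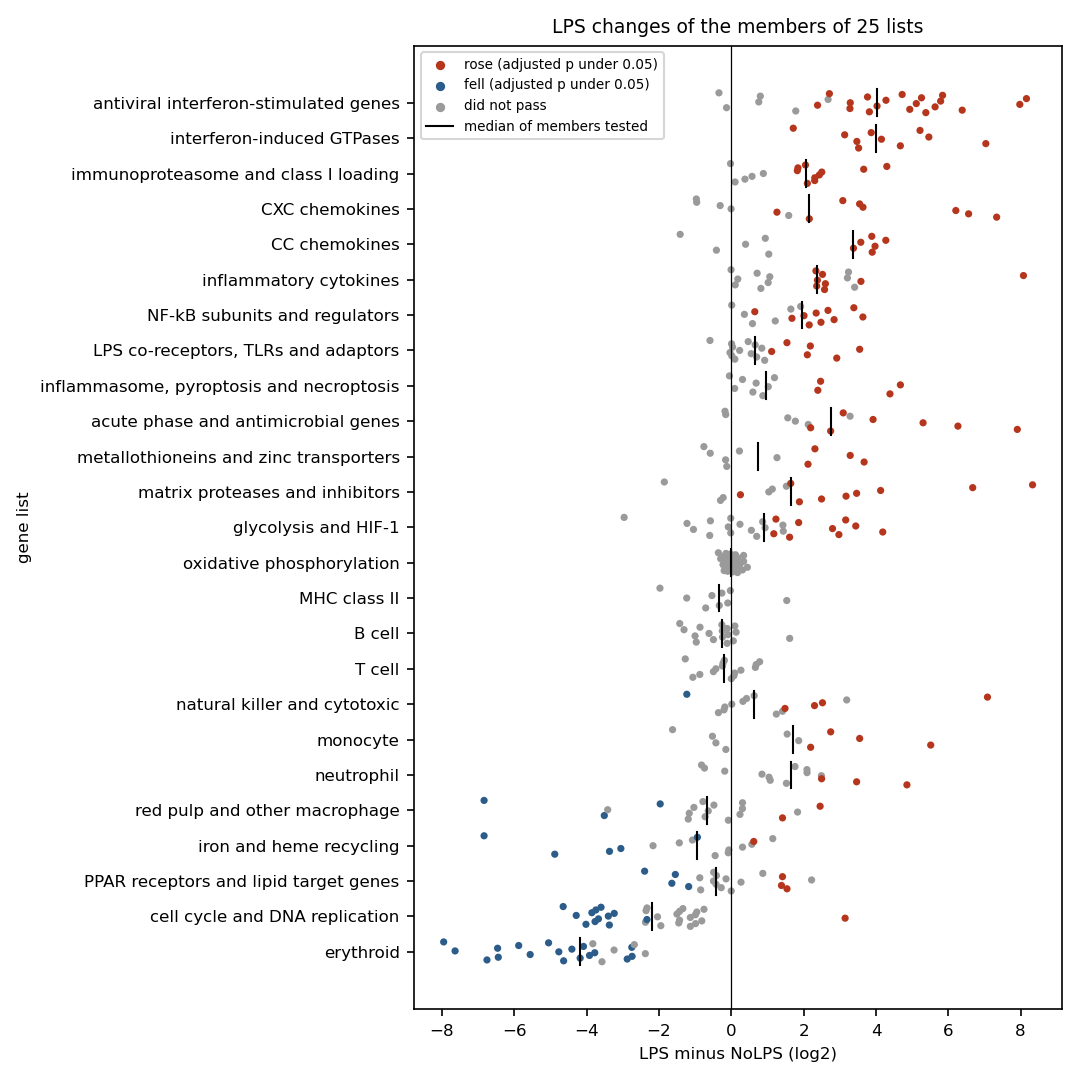
LPS minus NoLPS changes (log2, horizontal axis) of each tested member of 25 gene lists (vertical axis), red for members that rose, blue for members that fell and grey for the rest, with a black bar at each list's median. The interferon lists lie to the right, at medians of 4.03 and 4.01, and the erythroid list to the left, at -4.18.

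Of 8 interferon regulatory factors tested 3 rose. Irf7, which amplifies type I interferon, read 12.37, 12.94, 12.02 and 12.21 with LPS, against 8.15, 7.74, 7.69 and 6.29 without, a change of 4.92 ± 0.34 (adjusted p = 0.00192). Irf1, induced by interferon-γ, changed by 3.39 ± 0.40 (adjusted p = 0.00985), and Irf9, a DNA-binding factor of the type I interferon response, by 1.31 ± 0.22 (adjusted p = 0.0271). The count was 1 to 4 when an array was left out. Genes that cut and load peptides onto MHC class I rose in 10 of 15 cases, with a median of 2.05. Nlrc5, the activator of class I genes, changed by 3.66 ± 0.27 (adjusted p = 0.00232) and Tap1, a subunit of the peptide transporter, by 4.30 ± 0.36 (adjusted p = 0.00343). The inducible proteasome subunits Psmb8, Psmb9 and Psmb10 changed by 1.84, 2.30 and 2.31. The class I count was between 3 and 11 when an array was left out, lowest without ABA LPS replicate 2 and without CON LPS replicate 2. Of 9 MHC class II genes 0 passed, and 2 had an unadjusted limma p under 0.05, beside 3365 of all 12507 genes tested. The invariant chain Cd74 read 15.24, 15.44, 14.87 and 14.07 with LPS, against 15.94, 14.55, 14.17 and 15.07 without, and the arms overlapped. H2-Ob, which restrains peptide loading in B cells, read 8.84, 8.45, 10.81 and 8.52 with LPS, against 11.14, 11.06, 10.59 and 11.72 without, with ABA replicate 1 of the LPS arm inside the NoLPS range, and its change of -1.97 did not pass (adjusted p = 0.0953).

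Chemokines that draw neutrophils, monocytes and T cells rose. Of 13 CXC chemokines 8 rose, and of 11 CC chemokines 6 rose, with medians of 2.16 and 3.38. Cxcl2, a neutrophil attractant, read 8.17, 8.63, 8.52 and 9.03 with LPS, against 2.56, 2.32, 2.32 and 2.32 without, a change of 6.21 ± 0.18 (adjusted p = 0.000118). Its NoLPS values all lay near the lowest value. Cxcl1, of the same function, read 7.08, 7.95, 5.96 and 8.0 with LPS, against 3.57, 3.32, 3.78 and 3.77 without, a change of 3.64 ± 0.50 (adjusted p = 0.0156). Cxcl11 changed by 3.55 ± 0.61 (adjusted p = 0.0273) and Cxcl16, a membrane-bound chemokine, by 2.16 ± 0.29 (adjusted p = 0.015). Among the CC chemokines, Ccl5 was already high without LPS, at 10.52, 11.17, 9.43 and 11.10, and read 14.23, 14.53, 14.45 and 14.91 with LPS, a change of 3.97 ± 0.43 (adjusted p = 0.00793). The monocyte attractant Ccl2 read 6.43, 7.45, 6.44 and 7.23 with LPS, against 3.32, 3.84, 3.67 and 3.22 without, a change of 3.38 ± 0.31 (adjusted p = 0.00438). Ccl3, Ccl12 and Ccl11 lay near the lowest value on all 4 NoLPS arrays and changed by 3.89, 4.27 and 3.88. Ccl22, a chemokine of dendritic cells for regulatory T cells, changed by 3.58 ± 0.28 (adjusted p = 0.0029). The 6 CC chemokines were called in every fit that leaves out 1 array, while the CXC count was between 3 and 7, lowest without CON NoLPS replicate 1, CON NoLPS replicate 2 or CON LPS replicate 2.

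Of 18 inflammatory cytokines tested 8 rose, with a median of 2.37 and 3 to 7 rising when an array was left out, lowest without CON NoLPS replicate 1 or CON LPS replicate 2. Among the best known, Tnf and Il10 passed and Il6, Il1b and Ifng did not. Tnf read 4.06, 5.89, 4.0 and 5.10 with LPS, against 2.74, 2.26, 2.24 and 2.30 without, so all 4 LPS arrays were above all 4 NoLPS arrays. Its change was 2.38 ± 0.46 (adjusted p = 0.0355), and it was called in 1 of the 8 fits that leave out 1 array. Il10, which restrains macrophages, read 5.42, 6.14, 5.92 and 3.96 with LPS, against 2.70, 2.70, 2.95 and 2.70 without, a change of 2.60 ± 0.48 (adjusted p = 0.0325), also called in 1 of those 8. Il6 read 4.05, 7.36, 3.65 and 6.87 with LPS, against 2.24, 2.24, 2.24 and 2.24 without, and its change of 3.24 did not pass (adjusted p = 0.0986). Il1b read 9.68, 10.45, 11.24 and 10.52 with LPS, against 6.47, 7.65, 5.44 and 9.50 without, where ABA replicate 2 of the NoLPS arm lay close to the LPS arrays, and its change of 3.21 did not pass (adjusted p = 0.0892). Ifng, the interferon of NK and T cells, read 7.03, 8.97, 2.29 and 4.50 with LPS, against 2.29, 2.29, 2.29 and 2.29 without. Both CON arrays with LPS were above both ABA arrays with LPS, of which 1 was at the NoLPS level, and the change did not pass (adjusted p = 0.127). Nos2, the inducible nitric oxide synthase, was at 2.24 on all 8 arrays and was not tested. Ifnb1, the gene of interferon-β, read 2.24, 2.37, 2.24 and 2.35 with LPS, against 2.24 on each NoLPS array, near the lowest value throughout, and was not tested either. Il1a changed by 3.58 ± 0.31 (adjusted p = 0.0039), Tnfsf10, the death ligand TRAIL, by 2.34 ± 0.20 (adjusted p = 0.00378), and Ebi3, a subunit of interleukin-27, by 2.52 ± 0.34 (adjusted p = 0.0153). Of 29 cytokine receptors and decoys 5 rose, with a median of 0.77, while 3 to 6 rose when an array was left out and 10 with a term for high Xist. Il1r2, a decoy for interleukin-1, read 8.57, 9.11, 10.35 and 9.97 with LPS, against 4.36, 5.90, 4.24 and 4.68 without, a change of 4.71 ± 0.55 (adjusted p = 0.00985). Il15ra, which presents interleukin-15, changed by 4.69 ± 0.25 (adjusted p = 0.00095), with all 4 NoLPS arrays near the lowest value.

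Among the genes that sense LPS, the receptor itself did not pass the test and its co-receptor did. Tlr4 read 4.17, 3.86, 4.99 and 4.10 with LPS, against 4.58, 4.45, 4.48 and 5.97 without, with overlapping arms and a change of -0.59 (adjusted p = 0.367). Cd14, which hands LPS to the receptor, read 11.71, 12.38, 12.73 and 12.38 with LPS, against 9.17, 8.95, 7.29 and 9.59 without, a change of 3.55 ± 0.56 (adjusted p = 0.0216). Myd88 changed by 2.18 ± 0.40 (adjusted p = 0.0325) and Tlr3, the receptor for double-stranded RNA, by 2.10 ± 0.41 (adjusted p = 0.036). Irak3, a kinase-dead brake on the pathway, read 8.17, 8.81, 8.64 and 8.43 with LPS, against 6.08, 5.24, 4.96 and 6.11 without, a change of 2.91 ± 0.33 (adjusted p = 0.00896). In all, 6 of 19 members of this list rose, with 5 and 3 without ABA NoLPS replicates 2 and 1 and 1 without any of the other 6 arrays. Of the NF-kB genes 10 of 16 rose, feedback inhibitors among them, with a median of 1.96. Tnfaip3 (A20), which removes ubiquitin chains from the pathway, read 11.70, 11.85, 11.54 and 11.95 with LPS, against 8.12, 8.14, 7.32 and 8.92 without, a change of 3.64 ± 0.35 (adjusted p = 0.0052). Its partner Tnip1 changed by 2.15 ± 0.24 (adjusted p = 0.0086), the nuclear NF-kB regulator Nfkbiz by 3.39 ± 0.36 (adjusted p = 0.00761) and the kinase Ikbke by 2.84 ± 0.33 (adjusted p = 0.0101). These 4 were called in each fit without 1 array, and the count of the list lay between 4 and 12. Socs3, which blocks signalling of interleukin-6, read 12.04, 12.53, 12.57 and 12.23 with LPS, against 8.53, 9.06, 8.81 and 9.29 without, a change of 3.42 ± 0.20 (adjusted p = 0.00122). Socs2, an inhibitor of growth hormone signalling, changed by 2.58 ± 0.29 (adjusted p = 0.00861) and Stat3 by 1.84 ± 0.30 (adjusted p = 0.0244). Of 18 JAK, STAT and SOCS genes 4 rose, and 2 to 6 did when an array was left out. Of the MAP kinase phosphatases, which switch off stress kinases, 4 of 10 rose, among them Dusp1 with 2.67 ± 0.26 (adjusted p = 0.00615). That count was 1 to 3 when an array was left out.

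Genes of inflammatory cell death rose in 4 of 12 cases. Casp4, the mouse caspase-11 that binds LPS in the cytosol, read 10.76, 11.26, 10.40 and 10.20 with LPS, against 5.73, 6.32, 5.45 and 6.42 without, a change of 4.67 ± 0.29 (adjusted p = 0.00158). Mlkl, which pierces the membrane in necroptosis, read 9.18, 9.26, 8.80 and 8.53 with LPS, against 4.46, 4.46, 4.43 and 4.88 without, a change of 4.39 ± 0.19 (adjusted p = 0.000557). Gsdmd, the pore protein of pyroptosis, changed by 2.39 ± 0.30 (adjusted p = 0.0124), and the death receptor Fas by 2.47 ± 0.45 (adjusted p = 0.0319). The count of this list was 2 to 8 when an array was left out, highest without ABA NoLPS replicate 2. Of 16 co-stimulatory and checkpoint molecules 8 rose, with a median of 1.75. Ctla4, an inhibitory receptor of T cells, read 7.72, 7.58, 7.37 and 7.66 with LPS, against 5.55, 5.49, 5.37 and 5.61 without, and changed by 2.08 ± 0.09 (adjusted p = 0.000557). Tnfrsf9 (4-1BB) changed by 3.04 ± 0.16 (adjusted p = 0.000949), the early activation marker Cd69 by 3.62 ± 0.49 (adjusted p = 0.0152) and Cd80, a ligand for CD28 and CTLA4, by 2.63 ± 0.43 (adjusted p = 0.0247). This count was 2 to 10 when an array was left out, with 2 in 5 of the 8 fits.

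Among 13 acute phase and antimicrobial genes 7 rose, with a median of 2.75. Lcn2, which starves bacteria of iron, read 13.01, 13.85, 14.04 and 14.09 with LPS, against 8.19, 7.78, 6.27 and 7.68 without, a change of 6.26 ± 0.49 (adjusted p = 0.00285). Steap4, a metalloreductase, changed by 5.30 ± 0.36 (adjusted p = 0.00192) and Cp, the copper-bearing ferroxidase, by 2.75 ± 0.24 (adjusted p = 0.00393). Of 10 metallothioneins and zinc transporters 4 rose. The metallothioneins, which bind zinc, were already high without LPS. Mt1 read 13.86, 14.28, 14.39 and 14.05 with LPS, against 10.58, 11.69, 10.74 and 10.43 without, a change of 3.29 ± 0.30 (adjusted p = 0.00469), and Mt2 changed by 3.67 ± 0.46 (adjusted p = 0.0121). The zinc importers Slc39a14 and Slc39a10 changed by 2.31 and 2.12. Of 15 matrix proteases and inhibitors 9 rose, among them Mmp3, a stromelysin, with 4.13 ± 0.39 (adjusted p = 0.00526), and Adamts9, an aggrecanase, with 3.17 ± 0.27 (adjusted p = 0.00365). Sod2, the mitochondrial superoxide dismutase, changed by 3.30 ± 0.27 (adjusted p = 0.00341). Cat, Gpx4 and Gpx1, which break down peroxides and of which catalase and Gpx1 are abundant in red cells, fell by 1.91, 1.86 and 1.68. Of 24 genes of glycolysis and the hypoxia response 9 rose, with a median of 0.90. Pfkfb3, which speeds glycolysis, changed by 3.44 ± 0.28 (adjusted p = 0.00321), Hk2, an inducible hexokinase, by 2.80 ± 0.40 (adjusted p = 0.0165) and Hif1a by 1.86 ± 0.21 (adjusted p = 0.00932). Of 31 subunits of the respiratory chain 0 passed in limma, 0 had an unadjusted p under 0.05, and their median change was -0.01, though 2 fell after quantile normalisation. The counts of these lists were 5 to 8 for acute phase genes, 5 to 8 for matrix genes and 3 to 11 for glycolysis when an array was left out.

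Red cell genes had the lowest median change of the 54 lists. Of 23 erythroid genes tested 18 fell, all 23 changes were negative, and the median was -4.18. The mean level of the list was 6.96, 5.74, 6.46 and 6.60 on the LPS arrays, against 11.25, 11.37, 12.17 and 9.35 on the NoLPS arrays. Rhd, a blood group protein of the red cell membrane, read 3.43, 3.05, 3.23 and 4.32 with LPS, against 11.51, 12.50, 12.48 and 9.34 without, a change of -7.95 ± 0.80 (adjusted p = 0.0065). Kel, a blood group protease, read 3.50, 2.58, 3.24 and 3.24 with LPS, against 11.46, 11.03, 11.99 and 8.64 without, a change of -7.64 ± 0.77 (adjusted p = 0.00647). Klf1, a master regulator of globin and other red cell genes, read 4.99, 3.55, 4.61 and 4.61 with LPS, against 10.95, 11.83, 12.05 and 8.78 without, a change of -6.46 ± 0.81 (adjusted p = 0.0126). In each of these the lowest NoLPS array was ABA replicate 2, which still stood more than 3 above the highest LPS array. Epb42, of the membrane skeleton, changed by -5.88 ± 0.74 (adjusted p = 0.0127), Trim10 by -6.44 ± 1.01 (adjusted p = 0.0214), Hemgn by -6.76 ± 1.22 (adjusted p = 0.0304) and Tal1, a factor of early blood cells, by -5.56 ± 0.93 (adjusted p = 0.0257). Cldn13, a claudin, and Sox6, a repressor of embryonic globin, changed by -6.84 and -6.44 and stood outside the list. Dmtn, a protein of the red cell skeleton, changed by -5.62 ± 1.15 (adjusted p = 0.0423) and Apol8 by -6.51 ± 0.94 (adjusted p = 0.0171). Ank1, Gata1, Sptb, Alas2 and Add2 were the 5 list members that did not pass, with changes of -3.24, -3.58, -3.83, -2.38 and -2.68 and unadjusted p under 0.05. In such bulk RNA, fewer cells of a type and less RNA per cell cannot be told apart.

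The number of erythroid genes called rested on single arrays. It was 22 without ABA NoLPS replicate 2 and 14 without ABA NoLPS replicate 1, but 10 and 7 without ABA LPS replicates 1 and 2, 6 and 3 without CON LPS replicates 1 and 2, and 2 without either CON NoLPS array. Rhd, Kel and Cldn13 were called in all 8 of those fits by a change of the same sign, while Klf1 and Epb42 were called in 5 and Hemgn in 2. With a term for high Xist, 14 of the list fell.

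**Figure D3:**
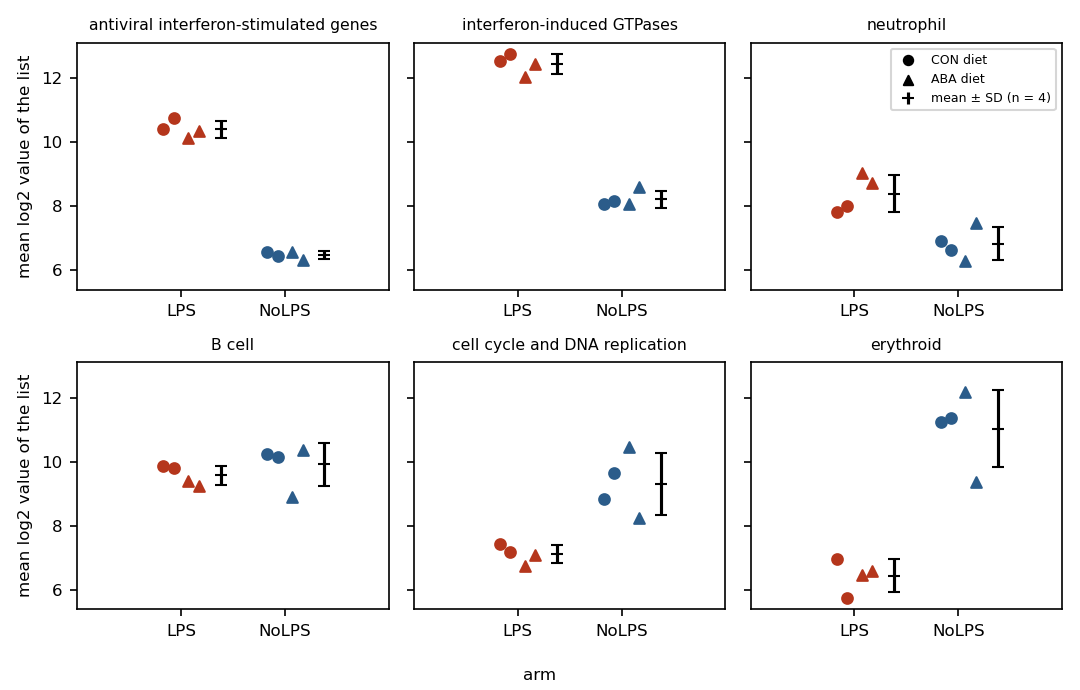
Mean log2 value (vertical axis) of 6 gene lists on each array (points, circles for the control diet and triangles for the ABA diet), LPS left of NoLPS, with the mean and SD of 4 arrays beside them. The erythroid means do not overlap, at 5.74 to 6.96 with LPS and 9.35 to 12.17 without, and the B cell means do.

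Genes of cell division fell with them. Of 30 cell cycle genes tested 12 fell and 1 rose, with a median change of -2.19. Mki67, the proliferation antigen Ki-67, read 9.64, 8.27, 9.10 and 9.06 with LPS, against 12.69, 13.02, 14.12 and 11.65 without, a change of -3.86 ± 0.59 (adjusted p = 0.0201). Ccnb2, a mitotic cyclin, read 7.07, 6.37, 6.05 and 6.54 with LPS, against 10.34, 10.88, 11.73 and 9.15 without, a change of -4.02 ± 0.58 (adjusted p = 0.0171). On the NoLPS arrays ABA replicate 1 was highest and ABA replicate 2 lowest for both, the same order as for the erythroid mean. Ccne2, a cyclin of DNA replication, changed by -4.29 ± 0.66 (adjusted p = 0.0203) and the mitotic kinase Aurka by -4.65 ± 0.77 (adjusted p = 0.0253). The member that rose was Cdkn1a (p21), which stops the cycle, at 6.38, 7.47, 6.18 and 7.32 with LPS, against 3.70, 4.09, 2.88 and 4.10 without, a change of 3.15 ± 0.43 (adjusted p = 0.0152). The 12 members that fell became 17 without ABA NoLPS replicate 2, 12 without ABA NoLPS replicate 1, 1 without ABA LPS replicate 1 and 0 in each of the other 5 fits. On the LPS arrays the orders differed, CON replicate 2 having the lowest erythroid mean (5.74) but not the lowest cell cycle mean (7.18, beside 6.74 on ABA replicate 1). The part of erythroid cells in the fall was not tested.

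Of the red pulp macrophage and iron genes that passed, more fell than rose. Cd163, the receptor that takes up haemoglobin bound to haptoglobin, read 2.60, 2.35, 4.99 and 2.24 with LPS, against 10.45, 9.0, 9.20 and 10.89 without, a change of -6.84 ± 0.76 (adjusted p = 0.00852). Slc40a1, ferroportin, the only known exporter of iron, read 8.06, 7.08, 9.78 and 7.81 with LPS, against 13.33, 12.50, 12.61 and 13.82 without, a change of -4.88 ± 0.58 (adjusted p = 0.0107). For both, ABA replicate 1 was the highest LPS array and the order of the NoLPS arrays was not that of the erythroid genes. Mrc1, the mannose receptor, changed by -3.51 ± 0.51 (adjusted p = 0.0171) and Vcam1, an adhesion molecule of red pulp macrophages, by -1.97 ± 0.32 (adjusted p = 0.0232). Blvrb and Blvra, which turn biliverdin into bilirubin, changed by -3.37 and -0.94, and Tfrc, the transferrin receptor that red cell precursors carry at high levels, by -3.06 ± 0.56 (adjusted p = 0.0319). Fth1, the ferritin heavy chain that stores iron, read 15.44, 15.57, 15.86 and 15.60 with LPS, against 15.16, 15.01, 14.89 and 14.93 without, a small rise of 0.62 ± 0.11 (adjusted p = 0.0303). Marco, a scavenger receptor of the marginal zone, rose by 2.45 ± 0.50 (adjusted p = 0.0421). In all, 5 of 15 iron and heme genes fell and 1 rose, and 3 of 18 macrophage markers fell and 2 rose. These counts were 2 to 7 and 1 to 4 for the members that fell when an array was left out. For the members that rose they were 0 to 1 and 0 to 2. With quantile normalisation 0 iron and heme genes rose and 6 fell, and 1 macrophage marker rose and 5 fell.

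Markers of lymphocytes did not pass the test, while those of cytotoxic cells and monocytes did in part. Of 17 B cell markers 0 passed, with 2 at an unadjusted limma p under 0.05 and a median of -0.25. Of 15 T cell markers 0 passed, with 0 at an unadjusted p under 0.05 and a median of -0.19. Over all 12507 genes tested, 3365 had an unadjusted p under 0.05. On the NoLPS arrays the B cell mean was lowest on ABA replicate 1, at 8.90. The cytotoxic genes Gzma and Prf1 changed by 2.30 ± 0.44 (adjusted p = 0.0356) and 1.48 ± 0.32 (adjusted p = 0.0459), and Cd244a, an NK cell receptor, by 2.52 ± 0.38 (adjusted p = 0.0184), while the NK receptor gene Klrd1 fell to 6.84, 6.89, 7.44 and 6.93 with LPS, against 8.41, 8.35, 7.62 and 8.65 without. With Gzmb, 4 of 15 genes of this list rose and 1 fell. Of 10 monocyte markers 4 rose, among them Fcgr4, an activating Fc receptor, with 5.51 ± 0.44 (adjusted p = 0.00292), Ms4a4c with 2.75 ± 0.37 (adjusted p = 0.0144) and Chil3 with 2.19 ± 0.46 (adjusted p = 0.0437). These counts were 1 to 5 each for the members that rose when an array was left out.

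Neutrophil genes had a median change of 1.64, with 3 of 14 tested passing. The mean of the list was 7.82, 8.02, 9.04 and 8.71 on the LPS arrays, against 6.92, 6.62, 6.28 and 7.48 on the NoLPS arrays. Ngp, a granule protein, read 11.89, 12.22, 12.61 and 12.50 with LPS, against 10.59, 8.88, 9.75 and 10.01 without, a change of 2.49 ± 0.38 (adjusted p = 0.0191). Fpr2, a formyl peptide receptor, changed by 4.85 ± 0.80 (adjusted p = 0.0254) and Mmp8, the neutrophil collagenase, by 3.46 ± 0.71 (adjusted p = 0.0415). S100a9, which forms calprotectin with S100a8, read 13.90, 14.04, 14.97 and 14.39 with LPS, against 11.39, 11.80, 10.74 and 13.41 without, a range of NoLPS values wider than that of the LPS values, and did not pass (adjusted p = 0.0562). S100a8 read 14.11, 14.34, 14.99 and 15.11 with LPS, against 12.31, 12.82, 11.43 and 13.62 without, and did not pass either (adjusted p = 0.0622). Without either ABA NoLPS array 5 of the list rose, without CON NoLPS replicates 1 and 2 the counts were 2 and 1, and without any of the 4 LPS arrays 0 rose. Over all 8 arrays, 10 of the 14 were higher and 2 lower at an unadjusted limma p under 0.05. Among all 12507 genes tested, 3365 had such a p in either direction. Of the 14 changes 3 were negative. With a term for high Xist, 8 rose.

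Pparg, a lipid-sensing nuclear receptor and the gene deleted in the null mice, read 2.32, 2.45, 2.45 and 2.31 with LPS, against 2.51, 2.69, 2.45 and 3.56 without, near the lowest value on all 4 LPS arrays and on 3 of the 4 NoLPS arrays, and its change of -0.42 did not pass (adjusted p = 0.351). Lancl2, a proposed receptor for abscisic acid in mammals, read 7.14, 7.10, 7.01 and 5.43 with LPS, against 7.21, 7.92, 9.35 and 7.27 without, and its change of -1.27 did not pass either (adjusted p = 0.284). Of 19 receptors and lipid genes 3 rose and 4 fell. Pdk4, which holds pyruvate back from the mitochondrion, rose by 1.39 ± 0.21 (adjusted p = 0.0188), Plin2, a coat protein of lipid droplets, by 1.54 ± 0.24 (adjusted p = 0.0216) and Nr1h3, the sterol receptor LXRα, by 1.41 ± 0.31 (adjusted p = 0.0487). Mgll, a lipase of monoglycerides, changed by -2.40 ± 0.28 (adjusted p = 0.00934), the lysosomal lipase Lipa by -1.65 ± 0.22 (adjusted p = 0.0143), Acaa2, a thiolase of fatty acid oxidation, by -1.55 ± 0.21 (adjusted p = 0.0159) and the fatty acid transporter Cd36 by -1.18 ± 0.24 (adjusted p = 0.0396). When an array was left out, 0 to 2 rose and 1 to 3 fell.

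Whether the diet altered the response was tested by the difference between the LPS changes on the ABA and control diets, with 2 arrays in each group. No gene of 12507 passed, and 792 had an unadjusted limma p under 0.05. The 3 with the smallest p were Faf2, a ubiquitin adaptor, Nrm, a protein of the nuclear envelope, and C030006K11Rik, at an adjusted p of 0.121 each. Faf2 read 6.68, 6.70, 5.67 and 5.67 with LPS, against 5.67, 5.62, 5.67 and 5.67 without, so that it was higher on the CON arrays with LPS alone, a difference of -1.04 ± 0.07 (ABA minus CON, SE). Its value was the same on 3 of the NoLPS arrays, so the SE rests on few distinct values. Xist was high on both CON arrays with LPS and on neither ABA array with LPS, and its part in the diet difference was not tested. Nrm read 5.95, 6.0, 5.12 and 5.12 with LPS, against 8.47, 8.33, 6.12 and 6.09 without, a difference of 1.44 ± 0.09. The median change of the antiviral list was 3.64 on the ABA diet and 4.42 on the control diet, and that of the erythroid list was -3.64 and -4.97 in the same order. A count of 0 does not show that the diets gave the same response. It was 25 with no filter on low values, 4 with a trended prior, 38 without ABA NoLPS replicate 2, 32 without CON NoLPS replicate 2 and 4 without ABA NoLPS replicate 1.

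The 12 arrays of ABAIMMUN05 gave the same contrast in other samples. Xist stood between 10.39 and 11.74 on all 12, and its part in any difference between the experiments was not tested. There 3149 of 11336 genes passed, 1823 rising (16.1%) and 1326 falling (11.7%). Of the 1080 genes called in ABAIMMUN06, 1046 were tested in ABAIMMUN05, and 1029 of those (98.4%) had a change of the same sign there. Calls of the same sign were made for 738 (70.6% of the 1046, and 23.4% of the 3149), and of the opposite sign for 0. Among genes that rose the share was 506 of 640 (79.1%), and among genes that fell 232 of 406 (57.1%). Across the 10541 genes tested in both, the changes correlated at 0.782, a description across genes, which are not independent. Acod1 changed by 8.14 in ABAIMMUN06 and by 8.02 in ABAIMMUN05, Gzmb by 7.08 and 7.26, and Cd163 by -6.84 and -5.51. Rhd changed by -7.95 and -3.08, and Kel by -7.64 and -2.54. Of the 12 genes that fell most, Cd163, Rhd, Hemgn, Trim10 and Epb42 passed in ABAIMMUN05. Kel, Klf1, Cldn13 and Tal1 did not pass there (limma adjusted p = 0.105, 0.175, 0.0789 and 0.0649), and Apol8, Sox6 and Dmtn were not tested there. The erythroid list had medians of -4.18 and -2.54 and the cell cycle list of -2.19 and -0.82 in the same order. Lymphocyte and MHC class II lists, with 0 calls in ABAIMMUN06, held some in ABAIMMUN05. There 6 of 15 T cell markers and 5 of 9 MHC class II genes fell, and of 17 B cell markers 3 fell and 1 rose. Of all genes tested there, 11.7% fell.

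**Figure D4:**
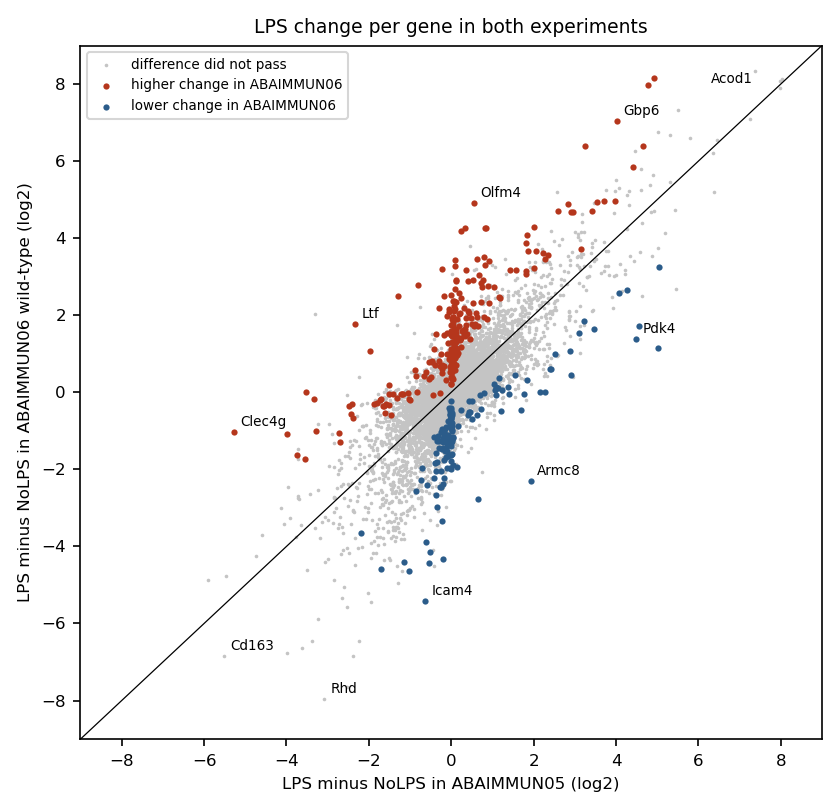
LPS minus NoLPS change of each gene tested in both experiments (points), in ABAIMMUN06 wild-type on the vertical axis and in ABAIMMUN05 on the horizontal axis (log2), with the line of equal change. Coloured points passed the test of the difference, and Acod1, at 8.14 and 8.02, lies on the line.

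The difference between the experiments' LPS changes was tested in 13356 genes over 20 arrays. It was higher in ABAIMMUN06 for 272 (2.04%) and lower for 195 (1.46%), but for 242 and 275 without ABA NoLPS replicate 1 of ABAIMMUN06 and for 274 and 283 without that of ABAIMMUN05. For 153 of these 467, all 12 ABAIMMUN05 arrays lay within 0.5 of that experiment's own lowest value of 2.29, so a change there was limited by that value, as it was for 3806 of all 13356 genes tested. Tnf, Junb, Batf3, Adm, Prf1, Cxcl16, Itgam, Prtn3 and Ifi44l were of that kind, with 12 of 12 near the lowest value. The experiments were normalised separately, and a gene's probe set was the one with the highest mean in the 8 arrays of ABAIMMUN06. Olfm4, a granule protein of a subset of neutrophils, had the highest difference. Its change was 4.90 in ABAIMMUN06, at 7.49, 7.26, 7.81 and 8.09 with LPS and 2.48, 2.42, 2.48 and 3.67 without, and 0.54 in ABAIMMUN05, at 3.15 ± 0.44 with LPS (SD, n = 8) and 2.60 ± 0.27 without (SD, n = 4), a difference of 4.36 ± 0.34 (SE; adjusted p = 1.02e-05). Clec4g, a lectin of sinusoidal endothelium in liver and lymph node, had changes of -1.04 in ABAIMMUN06 and -5.27 in ABAIMMUN05, a difference of 4.23 ± 0.44. Its NoLPS arrays averaged 3.47 ± 1.13 (SD) in ABAIMMUN06 and 7.57 ± 0.10 in ABAIMMUN05. The LPS arrays averaged 2.43 and 2.30 in that order, near the lowest value of each experiment. Among interferon genes, Ifit1 changed by 8.16 and 4.92, Gbp6 by 7.04 and 4.03, Igtp by 4.67 and 2.95 and Tap1 by 4.30 and 2.02, in ABAIMMUN06 and ABAIMMUN05 in that order, and each of these differences passed. The lowest differences were those of Apol8, Sox6 and Icam4, a red cell adhesion protein, at -5.11, -5.09 and -4.79, and of Armc8, at -4.22. In ABAIMMUN05, 10, 11 and 11 of the 12 arrays lay near the lowest value for Apol8, Sox6 and Icam4, and 0 for Armc8. Pdk4 changed by 1.39 in ABAIMMUN06, against 4.48 in ABAIMMUN05 (difference -3.10 ± 0.51, adjusted p = 0.00348), Socs2 by 2.58, against 4.08, and Errfi1, a glucocorticoid target, by 2.65, against 4.27. Without ABA NoLPS replicate 2 the number of genes called for the difference was 1118, and without CON NoLPS replicate 1, CON NoLPS replicate 2 or ABA NoLPS replicate 2 of ABAIMMUN05 it was 296, 268 and 284.

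Of the 54 lists, the neutrophil list had the most members that were higher in ABAIMMUN06. Its median change was 1.64 in ABAIMMUN06 and -0.15 in ABAIMMUN05. The test of the difference passed as higher in ABAIMMUN06 for 8 of its 14 tested members, beside 2.04% of all genes tested for the difference. Ltf, lactoferrin, had changes of 1.76 in ABAIMMUN06 and -2.33 in ABAIMMUN05, a difference of 4.08 ± 0.77 (adjusted p = 0.00861). Ngp had changes of 2.49 and -1.30, a difference of 3.79 ± 0.65 (adjusted p = 0.00458). Camp, the antimicrobial cathelicidin, had changes of 1.07 and -1.98, a difference of 3.05 ± 0.60 (adjusted p = 0.0106). The changes of these 3 had opposite signs in the experiments, but none of them passed in both: Ltf and Camp did not pass in ABAIMMUN06 (adjusted p = 0.117 and 0.139), nor Ngp in ABAIMMUN05 (adjusted p = 0.062). S100a9, S100a8, Mmp8 and Mmp9 differed by 2.68, 2.13, 2.84 and 1.90. For Mmp8, 8 of the 12 ABAIMMUN05 arrays lay near the lowest value. Itgam, an integrin of myeloid cells, differed by 2.09 and Prtn3, a primary granule protease, by -0.70, both with all 12 ABAIMMUN05 arrays near the lowest value. Fpr2 changed by 4.85 and 4.32, and that difference did not pass.

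**Figure D5:**
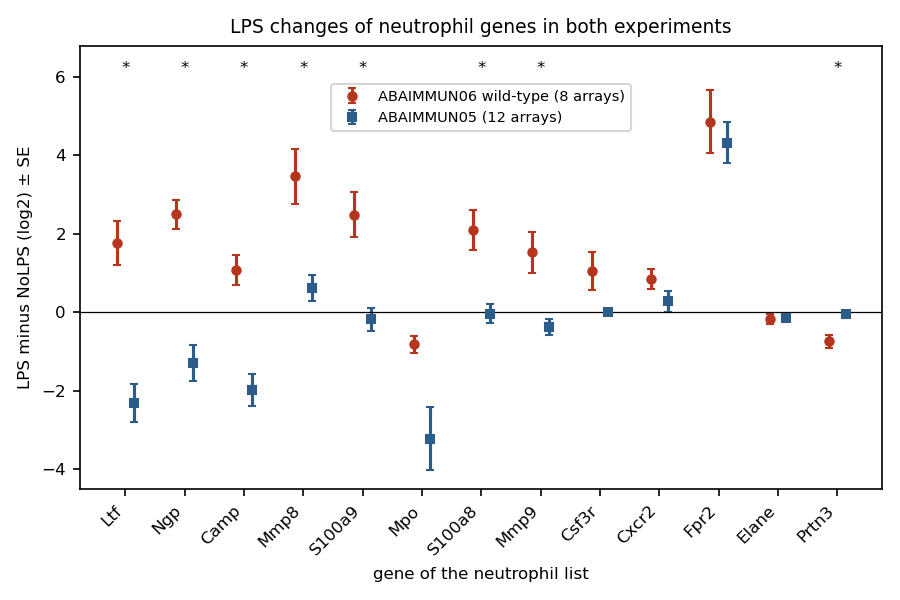
LPS minus NoLPS change with its SE (log2, vertical axis) of the neutrophil genes tested in both experiments (horizontal axis), ABAIMMUN06 wild-type (circles) left of ABAIMMUN05 (squares). Stars mark differences that passed, and Ltf stands at 1.76 in ABAIMMUN06 and -2.33 in ABAIMMUN05.

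The response was also set against that of the null mice of the same experiment, by the difference of the LPS changes, wild-type minus null, over 16 arrays. No gene of 12719 passed, and 343 had an unadjusted limma p under 0.05. The smallest adjusted p was 0.957, for Gle1, Morn2 and Cenpo, whose differences were -0.61 ± 0.12, -0.36 ± 0.07 and -1.06 ± 0.23. The median change of the antiviral list was 4.03 in wild-type and 3.45 in null mice, and that of the erythroid list was -4.18 in wild-type and -1.83 in null mice. With 4 arrays in each arm of each genotype, a count of 0 does not show that the genotypes responded alike.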

How the data were processed

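Spleen RNA was measured on single-colour microarrays, and the values are the deposited log2 expression values, which the authors made with GCRMA per the submitters' processing notes. Those also name limma, and the versions were not given in the sources used here. Of 45101 probe sets, 34945 name 1 gene, 932 several and 9224 none in the platform annotation. Probe sets of several genes or none were left out, and a gene was represented by the probe set with the highest mean over the 8 arrays. The 2 experiments were normalised separately, so no level was set across them.

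A gene was tested where its value lay above the 40th percentile of its array on at least 4 of the 8 arrays. Fits used limma 3.58.1 in R 4.3.3, with diet as a term and Benjamini-Hochberg adjusted p under 0.05, and tables and figures Python 3.11.15, pandas 2.3.3 and matplotlib 3.10.9. The fitting script was tested on simulated data. Differences between diets, experiments and genotypes were contrasts in the same kind of fit. Groups came from the sample titles and labels. Promoter sequences came from RefSeq (GRCm38.p6).

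Genes were named by rule: the 12 largest rises and the 12 largest falls among called genes whose arms did not overlap, at most 4 members of a list in each direction (smallest adjusted p first), every member of lists of up to 16, the 4 highest and 4 lowest of an interaction or its 3 smallest p, and Pparg, Lancl2, Tnf, Il1b, Il6, Il10, Ifng, Nos2 and Xist. Immunoglobulin, T cell receptor, RIKEN, clone and predicted names were left out of the leading genes. Tlr4, Ifnb1, Ank1, Gata1, Sptb, Alas2, Add2, S100a8, S100a9, Camp, Itgam, Mmp9 and Prtn3 and the AGATAA motif fall outside this rule and were chosen after their values were seen. The members and lists were chosen with earlier results of these data known. Alternatives tried were other normalisations, filters, priors, weights and models, each diet alone, a replicate block, a term for high Xist and leaving out each array.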

Additional observations from a re-analysis of the deposited data

Results flagged for a closer look

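Within the 4 arrays of an arm, an array was set apart where its gap to the nearest other array, as a share of the arm's range, exceeded Dixon's critical value for 4 values. Of 350 arms of named genes and lists, 29 (8.3%) held such an array, beside about 1 in 20 by chance. For Mmp13, Gzmb, Cxcl2, Il10, Add2 and Faf2 the other 3 arrays of the arm held 1 value. On the LPS array ABA replicate 1 the values set apart were 4.99 for Cd163, 10.59 for Gpx4, 8.65 for Mrc1, 7.44 for Klrd1, 10.81 for H2-Ob and 6.88 for the mean of T cell markers. On the LPS array ABA replicate 2 the values set apart were 5.43 for Lancl2, 3.71 for Sptb and 9.14 for Gzma. On the LPS array CON replicate 1 the value set apart was 3.31 for Add2. On the LPS array CON replicate 2 the values set apart were 7.56 for Ccl11 and 4.37 for Adm. On the NoLPS array ABA replicate 1 the values set apart were 2.93 for Gzmb, 8.40 for Irf1, 2.95 for Il10, 6.38 for Gsdmd, 4.51 for Slc39a14, 5.02 for Mmp3, 8.79 for Col4a1 and 8.90 for the mean of B cell markers. On the NoLPS array ABA replicate 2 the values set apart were 2.31 for Mmp13, 5.97 for Tlr4, 4.88 for Mlkl, 8.66 for Gzma and 3.67 for Olfm4. On the NoLPS array CON replicate 1 the values set apart were 5.81 for Timp1, 2.56 for Cxcl2 and 2.74 for Tnf. On the NoLPS array CON replicate 2 the value set apart was 5.62 for Faf2.

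The LPS change of 43 named genes differed between ABAIMMUN06 and ABAIMMUN05 in the limma test of the difference, given here as ABAIMMUN06 minus ABAIMMUN05 on the log2 scale. Among interferon and class I genes, the change was higher in ABAIMMUN06 for Ifit1 by 3.24, Ifit3 by 1.43, Ifi44l by 4.07, Igtp by 1.73, Gbp6 by 3.01, Slfn4 by 3.21, Nlrc5 by 1.81, Tap1 by 2.28 and Psmb10 by 1.40. Among chemokines, cytokines and signalling genes, the change was higher in ABAIMMUN06 for Ccl12 by 3.45, Ccl11 by 2.06, Cxcl16 by 2.06, Tnf by 2.33, Csf2rb by 1.03, Ikbke by 2.11, Casp4 by 1.76, Junb by 3.18, Ier3 by 2.73 and Adm by 1.18. Among myeloid and neutrophil genes, the change was higher in ABAIMMUN06 for Ltf by 4.08, Ngp by 3.79, Camp by 3.05, S100a8 by 2.13, S100a9 by 2.68, Mmp8 by 2.84, Mmp9 by 1.90, Itgam by 2.09, Chil3 by 2.49, Ms4a4c by 1.86 and Olfm4 by 4.36. It was also higher for Clec4g by 4.23, Batf3 by 2.52, Nfil3 by 1.60 and Prf1 by 1.48. It was lower in ABAIMMUN06, with a difference of -5.11 for Apol8, -5.09 for Sox6, -4.79 for Icam4, -4.22 for Armc8, -3.62 for Aurka, -3.10 for Pdk4, -1.62 for Errfi1, -1.50 for Socs2 and -0.70 for Prtn3. Tnf, Junb, Batf3, Adm, Prf1, Cxcl16, Itgam, Prtn3 and Ifi44l had all 12 ABAIMMUN05 arrays near the lowest value. The cause of these differences was not tested, and experiment cannot be told apart from whatever else differed between the 2 sets of arrays.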

How the results depend on the processing

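The number of genes called for LPS, 1080, was within 1.5 times of that value with quantile normalisation (1332), 2-array filtering (1043), probe set means (992), trended (1144) or robust (991) priors, 4 groups (958), no diet term (1252), a minimum change of 1 (897) and a term for high Xist (1179). It was 1719 with arrays centred on their medians, 1638 with a 60th percentile filter, 2192 with array weights, 1822 in a fit of 16 arrays, 499 with no filter, 502 on the control diet alone and 0 on the ABA diet alone, and 258 to 1640 when 1 array was left out. Fits of 1 diet have 4 arrays, and the cause of the other shifts was not tested. Of the 1080 genes 1039 were also called with quantile normalisation. The diet difference, 0, was 25 with no filter, 4 with a trended prior and 0 to 38 when an array was left out. The experiment difference, 467, was 542 with quantile normalisation, 329 with no filter and 268 to 1118 when an array was left out. The genotype difference was 0 under each alternative and without each array. The count in ABAIMMUN05, 3149, was 3309 with quantile normalisation, 2476 with no filter and 2528 to 3210 when an array was left out. Replicate numbers are shared by the groups, but the deviations of equal numbers correlated at only -0.22 to 0.29, so they were not taken as pairs. With a replicate block the counts were 987 for LPS, 0 for diet, 213 for the experiment difference, 0 for genotype and 1762 in ABAIMMUN05. Falls outnumbered rises for LPS without ABA NoLPS replicate 1 (538 rising, 563 falling), and for the experiment difference without that array (242 higher, 275 lower) or ABA NoLPS replicate 1 of ABAIMMUN05 (274 and 283). The change of Cd74, -0.03 and not past the test, was above 0 in some fits, up to 0.29 with array weights. Signals near the lowest value limit the size of a change, and 8 arrays limit every count.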

Other observations

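Genes of several groups not described so far also passed the test for LPS. Cfb, factor B of the alternative complement pathway, read 10.78, 11.41, 11.28 and 11.0 with LPS, against 7.71, 7.41, 6.70 and 8.31 without, a change of 3.59 ± 0.37 (adjusted p = 0.00685). It was 1 of 3 complement genes of 14 that rose (1 to 3 when an array was left out), beside C1ra with 1.95 and Serping1, the C1 inhibitor, with 1.61. Procr, the endothelial receptor of protein C, read 9.43, 10.01, 9.04 and 9.83 with LPS, against 5.01, 5.72, 4.31 and 6.60 without, a change of 4.17 ± 0.54 (adjusted p = 0.014), and Icam1, a ligand for leukocyte integrins, changed by 3.37 ± 0.47 (adjusted p = 0.0162). The collagen IV chains of basement membranes Col4a1 and Col4a2 changed by 2.57 and 2.26, while Stab2, a scavenger receptor of sinusoidal endothelium, fell to 4.39, 5.89, 6.72 and 6.56 with LPS, against 8.58, 8.66, 7.70 and 8.77 without.

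Of 11 dendritic cell genes 4 rose and 1 fell, and 2 to 4 rose when an array was left out. Ccr7, which guides mature dendritic cells to T cell zones, read 11.17, 11.76, 10.33 and 11.31 with LPS, against 9.22, 8.97, 7.02 and 8.30 without, a change of 2.77 ± 0.40 (adjusted p = 0.017). Batf3, a factor of cross-presenting dendritic cells, changed by 2.52 ± 0.29 (adjusted p = 0.00944) and Ly75, an endocytic receptor, by 2.21, and the fourth was Bst2. Nfil3, which represses clock genes, was the 1 clock gene of 12 that rose, at 5.76, 6.66, 5.75 and 6.56 with LPS, against 2.24, 2.75, 2.24 and 2.86 without. Prdm1, the factor Blimp-1 of plasma cells, changed by 2.46 ± 0.41 (adjusted p = 0.0264), as 1 of 9 plasma cell genes. Over all genes tested 5.22% rose, so 1 member of a list of this size says little of the list. Hpgd, which degrades prostaglandins, fell by 3.00. Of 20 immediate-early factors 6 rose (1 to 8 when an array was left out), among them Junb with 3.27 ± 0.34 (adjusted p = 0.00685) and Ier3 with 3.52 ± 0.48 (adjusted p = 0.0153). Cela1, a pancreatic elastase, read 5.85, 3.34, 5.86 and 5.31 with LPS, against 9.54, 9.64, 9.42 and 9.03 without, and was the 1 pancreas gene of 4 tested that fell.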
